A study of Mus musculus with 12 samples.

Results

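The DNA replication and mitosis genes described here are 47 genes chosen by symbol, out of 46517 gene IDs in the count files. They comprise 22 genes of DNA replication (Mcm2 to Mcm7, Cdc6, Cdc7, Cdc45, Cdt1, Gins1, Gins2, Pcna, Rrm1, Rrm2, Tyms, Tk1, Dut, Uhrf1, Prim1, Pola1 and Pold1), 4 regulators of S-phase entry (Ccne1, Ccne2, E2f1 and Mybl2) and 21 genes of mitosis (Mki67, Top2a, Ccna2, Ccnb1, Ccnb2, Cdk1, Bub1, Bub1b, Aurka, Aurkb, Plk1, Birc5, Cdc20, Cdca8, Cenpe, Cenpf, Kif11, Kif20a, Tpx2, Nusap1 and Ube2c). The first 26 are called S-phase members and the last 21 mitotic members. All 47 passed the filter on low counts.

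A dividing cell copies its DNA once per cycle. Origins are licensed in G1, when Cdc6 and Cdt1 load the ring of Mcm2 to Mcm7 proteins, which becomes the replicative helicase once the kinase Cdc7 has acted and Cdc45 and the GINS complex have joined it. Genes of this programme are classically induced by E2F factors at the G1/S transition, whereas genes of mitosis are induced later, in G2, through promoters that carry CHR and CCAAT elements. In the colon the dividing cells lie in the lower crypt, and most of the other epithelial cells have left the cycle.

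RNA was measured in intestinal epithelial cells detached from the colon of C57BL/6 mice aged 7 to 9 weeks, in 4 groups of 3 libraries labelled as biological replicates. The groups were wild-type (WT) mice left untreated, WT mice given dextran sulfate sodium for 48 h (DSS, a sulfated sugar polymer that damages the lining of the colon), Nfkb2-/- mice (knockout, KO) left untreated, and KO mice given DSS for 48 h. Nfkb2 encodes p100, the precursor of the NF-kB subunit p52, and the labels give the KO as Nfkb2-/- in the whole animal, with no cell type named for the deletion. The dose of DSS and the deleted part of the gene are not given in the sources used here.

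Library totals ranged from 5595909 to 8117740 counts, and the 47 members held between 0.171% and 0.327% of them. Levels are CPM, counts scaled to a common library size by TMM factors, and means are given with their SD over 3 libraries. The targeted gene Nfkb2 had 30.7, 36.0 and 43.6 CPM in WT untreated, 41.5, 46.0 and 39.5 CPM in WT with DSS, 11.7, 17.4 and 13.9 CPM in untreated KO, and 19.6, 15.5 and 17.1 CPM in KO under DSS. Every KO library lay below every WT library, in the direction of the labels. The epithelial markers Epcam, Cdh1, Krt8, Krt18, Krt19, Vil1 and Cdx2 summed to between 20000 and 29020 CPM per library, and none of the 7 was at 0 in any library.

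One library stood apart for these genes. In untreated WT replicate 3, all 47 members were above the mean of the other 2 untreated WT libraries, with a median ratio of 1.45 and a range from 1.02 (Tk1) to 3.53 (Cdc6). The same ratio had a median of 0.984 over all genes tested. The 11 crypt markers listed also summed higher in this library (813 CPM against 599 and 680 CPM) and the 7 goblet markers lower (18800 CPM against 29890 and 26920 CPM). Calls of members that use untreated WT are therefore given with and without it, and those of other genes only where stated.

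To show the sequences the classes are known for, the RefSeq promoters (GRCm38.p6, 250 bases before to 50 after the start) were searched on both strands for E2F letters (TTTGGCGC, TTTCCCGC, TTTGCCGC or TTTCGCGC), CHR letters (TTTGAA or TTCGAA) and CCAAT. The table held 39 of the 47 members, with 42 windows in all. E2F letters stood in 9 of 25 S-phase windows (36.0%), those of Cdc6, Cdt1, Mcm3, Mcm5, Mcm6, Mcm7, Pola1, Pold1 and Uhrf1, and in 1 of 17 mitotic windows (5.88%), that of Cdk1, against 2.26% of the 32851 windows of all genes. CHR letters stood in 13 of 17 mitotic windows (76.5%) and in 5 of 25 S-phase windows (20.0%), against 19.2% of all. Windows that held both CHR letters and CCAAT made up 76.5% of the mitotic and 12% of the S-phase windows, against 7.52% of all. CCAAT alone stood in 88.2% of the mitotic, 56.0% of the S-phase and 37.4% of all windows. These matches describe letters in a window and do not show that a factor was bound.

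The promoters of 4 members are shown as the 250 bases before the RefSeq start, written in the sense of the gene: Mcm5 and Mcm6, which passed the test in most comparisons, and Cdk1 and Top2a, the mitotic members with the smallest adjusted p. Capitals mark the E2F, CHR and CCAAT letters on either strand. Mcm5 lies at chr8:75109259-75109508 on the plus strand, Mcm6 at chr1:128359706-128359955, Cdk1 at chr10:69352913-69353162 and Top2a at chr11:99024190-99024439, the last 3 on the minus strand.
Mcm5: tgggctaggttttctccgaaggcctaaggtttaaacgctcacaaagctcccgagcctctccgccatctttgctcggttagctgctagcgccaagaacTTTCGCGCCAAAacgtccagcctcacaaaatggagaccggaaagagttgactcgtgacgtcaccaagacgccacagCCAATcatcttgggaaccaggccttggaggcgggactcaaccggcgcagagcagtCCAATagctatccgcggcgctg
Mcm6: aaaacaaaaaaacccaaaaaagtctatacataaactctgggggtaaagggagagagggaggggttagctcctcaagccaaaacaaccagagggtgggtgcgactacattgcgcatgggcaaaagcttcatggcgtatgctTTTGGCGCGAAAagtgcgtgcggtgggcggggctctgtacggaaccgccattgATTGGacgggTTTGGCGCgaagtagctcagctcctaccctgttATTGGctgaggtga
Cdk1: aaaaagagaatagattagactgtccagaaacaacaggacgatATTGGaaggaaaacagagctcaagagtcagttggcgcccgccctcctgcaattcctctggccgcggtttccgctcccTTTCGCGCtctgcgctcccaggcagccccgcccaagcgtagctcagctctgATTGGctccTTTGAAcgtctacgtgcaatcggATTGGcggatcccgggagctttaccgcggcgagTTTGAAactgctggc
Top2a: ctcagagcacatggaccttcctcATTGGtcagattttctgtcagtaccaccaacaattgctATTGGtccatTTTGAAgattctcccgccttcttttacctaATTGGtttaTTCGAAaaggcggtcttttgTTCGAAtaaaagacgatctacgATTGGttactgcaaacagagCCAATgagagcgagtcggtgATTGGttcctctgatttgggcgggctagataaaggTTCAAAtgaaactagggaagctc
In Mcm5 the letters TTTCGCGC (first base at position -153 from the start) and GCGCCAAA (at -149, the reverse strand of TTTGGCGC) overlap. Mcm6 holds a like overlapping pair at -110 and -106 and a further TTTGGCGC at -47, and neither window holds CHR letters. Cdk1 holds TTTCGCGC at -131 and TTTGAA at -71 and -15, so it alone among the mitotic windows carries both kinds of element. Top2a holds no E2F letters, but TTTGAA or TTCGAA at -179, -140, -120 and, on the other strand, -23, together with 6 copies of CCAAT on either strand.

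Averaged over members, the 2 classes moved apart in KO cells. The mean log2 CPM of the S-phase members was 4.53, 4.43 and 5.22 in untreated WT, 4.33, 4.31 and 4.33 in WT under DSS, 4.67, 4.81 and 4.81 in untreated KO, and 3.51, 3.52 and 3.55 in KO under DSS. The 3 libraries of KO under DSS were the lowest of the 12, with no overlap with any other group. The mean log2 CPM of the mitotic members was 5.74, 5.65 and 6.21 in untreated WT, 5.58, 5.57 and 5.54 in WT under DSS, 6.28, 6.34 and 6.25 in untreated KO, and 5.58, 5.63 and 5.68 in KO under DSS. Here untreated KO was the highest group, and the DSS groups of both genotypes lay within 5.54 to 5.68.

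The S-phase mean minus the mitotic mean compares the classes within each library, on the log2 scale. It was -1.21, -1.22 and -0.99 in untreated WT and -1.25, -1.27 and -1.21 in WT under DSS, so the WT groups overlapped. It was -1.604, -1.53 and -1.44 in untreated KO, below all 6 WT libraries, and -2.07, -2.11 and -2.14 in KO under DSS, below all other libraries. In bulk RNA, fewer cells of a type and less RNA per cell cannot be told apart.

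**Figure D1:**
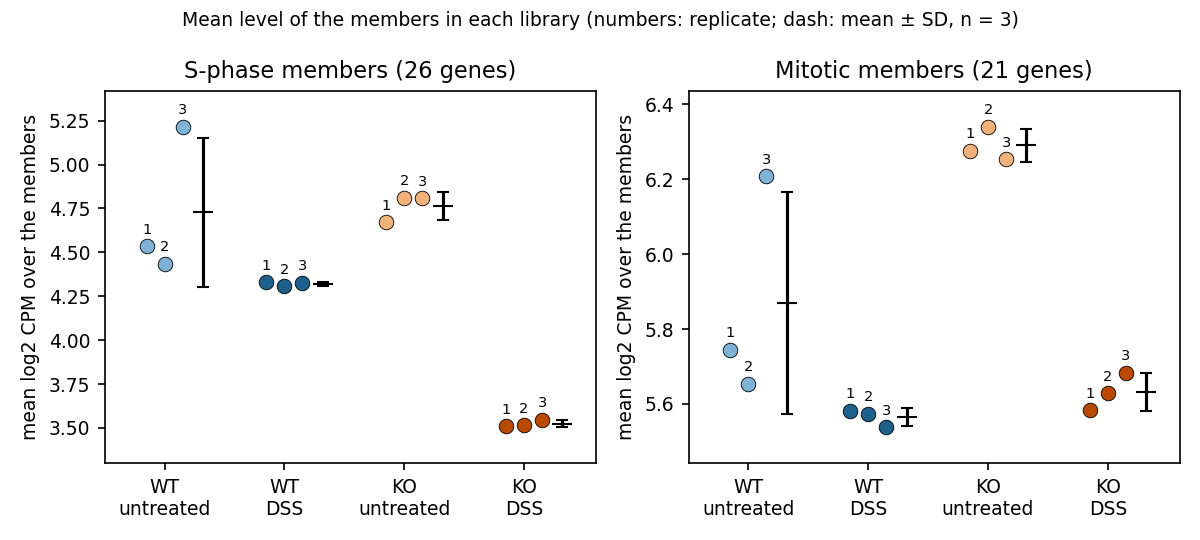
Mean log2 CPM over the 26 S-phase members (left) and the 21 mitotic members (right) in each library, numbered by replicate, with the group mean and SD (n = 3) as a dash and bar. The S-phase means of KO under DSS lie at 3.51 to 3.55, below every other library, whereas the mitotic means of KO under DSS (5.58 to 5.68) lie beside those of WT under DSS (5.54 to 5.58), and untreated WT replicate 3 stands above its group in both panels.

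The comparison of DSS with untreated KO cells asked which members changed 48 h into DSS without Nfkb2. In DESeq2, 33 of the 47 members fell and none rose, where 800 of all genes were called in either direction, against 491 in edgeR. Of the 47 members, 24 fell and none rose in edgeR (adjusted p under 0.05 over all 12522 genes tested). Beside them, edgeR called 2.04% of all genes lower and 1.88% higher. The 24 were 16 of 26 S-phase members (all 6 Mcm genes, Pcna, Rrm1, Rrm2, Tk1, Uhrf1, Prim1, Pola1, Cdc7, Cdt1 and Ccne2) and 8 of 21 mitotic members (Cdk1, Top2a, Ccna2, Cdca8, Aurka, Bub1b, Nusap1 and Kif11). The median log2 fold change was -1.31 over the S-phase members, which corresponds to 40.4% of the untreated level, and -0.74 over the mitotic members, or 59.9%, beside 0.02 over all genes tested. For 43 members (23 S-phase, 20 mitotic) every DSS library lay below every untreated library, beside 12.3% of all genes. E2f1 alone had a positive change (0.04, unadjusted edgeR p 0.949). Leaving out any 1 of the 6 KO libraries left between 14 and 18 members called, from 11 to 14 S-phase and from 2 to 5 mitotic. The 12 members called under all 12 alternatives were Mcm3 to Mcm7, Pcna, Rrm1, Rrm2, Tk1, Pola1, Cdk1 and Top2a.

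In WT cells the same comparison called 2 members, Cdc7 and Rrm2, both lower and both S-phase, beside 3.5% of all genes called lower and 2.8% called higher. None of the 21 mitotic members passed in edgeR with all 12 libraries and the filter on low counts, where 9 had an unadjusted p under 0.05. DESeq2 called 2 of them, Mki67 and Top2a. The median log2 fold change was -0.40 over the S-phase members and -0.31 over the mitotic members, beside 0.01 over all genes, and 46 of 47 changes were negative. For 15 members (9 S-phase, 6 mitotic) the groups did not overlap and DSS was lower, beside 9.96% of all genes. Without untreated WT replicate 3 no member was called, the medians were -0.18 (S-phase) and -0.17 (mitotic), and 4.4% of all genes were called lower and 2.99% higher. Leaving out WT DSS replicate 1 or 2 also ended both calls. Some other edgeR fits called mitotic members lower. With no filter on low counts they were 3, beside 1017 of all genes called in either direction. Without untreated WT replicate 1 they were 2 (633), and without untreated WT replicate 2 they were 3 (628).

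The difference between these DSS changes, KO minus WT, was tested as an interaction. Mcm5 (log2 difference -1.26, SE 0.24, edgeR adjusted p 0.0123) and Mcm6 (-1.06, SE 0.25, edgeR adjusted p 0.0483) passed, both with a larger decrease in KO, beside 0.527% of all genes called in that direction and 1.17% in the other. All 26 S-phase members had a negative difference (median -0.69), as did 19 of 21 mitotic members (median -0.34), beside a median of -0.01 over all genes. No mitotic member passed in edgeR or DESeq2, and 3 had an unadjusted edgeR p under 0.05. Mcm5 passed under all 17 alternatives (edgeR or DESeq2 adjusted p from 0.000152 to 0.0443), whereas Mcm6 passed under 6 of 17, with adjusted p from 0.000409 to 0.131. Mcm6 was not called in 10 of the 12 fits that left out a library; it kept its call only without untreated WT replicate 3 or KO DSS replicate 1. Without untreated WT replicate 3, 8 members passed, all with the larger decrease in KO: Mcm2, Mcm3, Mcm4, Mcm5, Mcm6, Mcm7, Cdc6 and the mitotic Cdca8, beside 0.925% of all genes. This comparison, the DSS comparisons and the genotype comparisons share their groups of libraries, so they are not independent of each other.

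**Figure D2:**
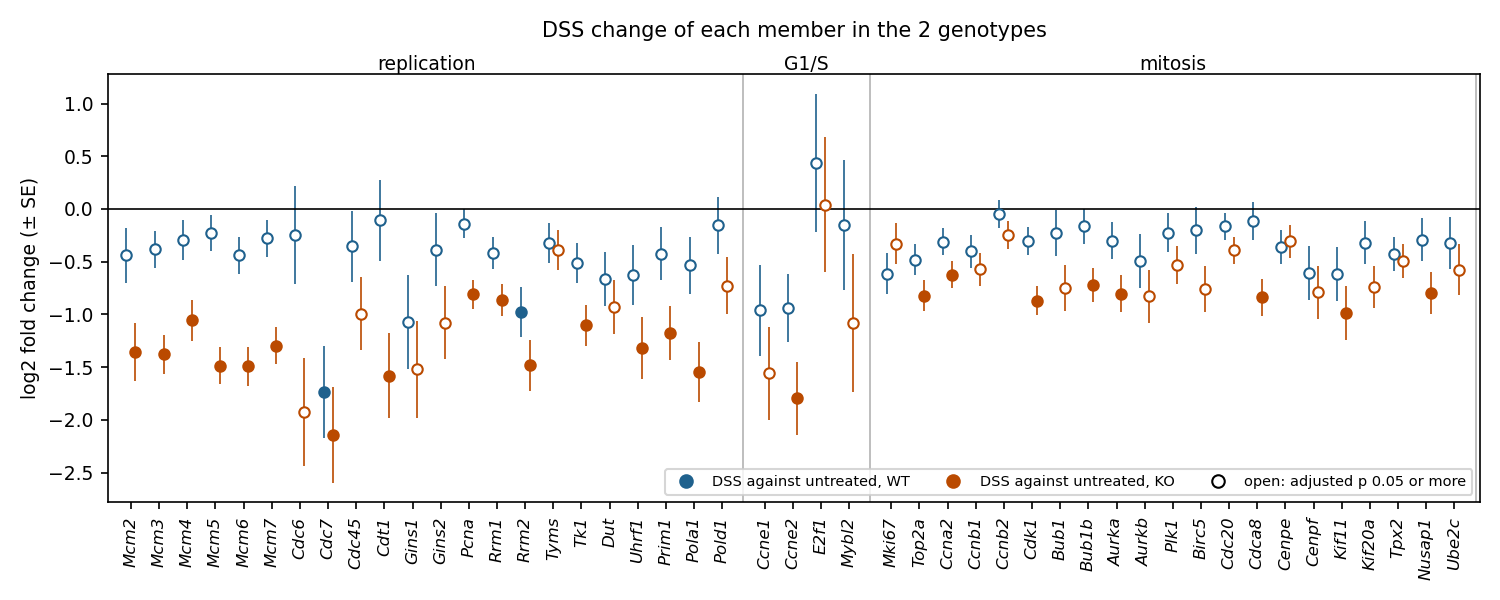
Log2 fold change of each member under DSS against untreated, with its SE, in WT (blue) and KO (orange); filled points have an edgeR adjusted p under 0.05. In KO, 24 points are filled and the S-phase members reach -2.14 (Cdc7), while in WT only Cdc7 and Rrm2 are filled.

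Between genotypes under DSS, 6 members were lower in KO: Mcm3, Mcm5, Mcm6, Mcm7, Pola1 and Ccne2, all S-phase, beside 1.34% of all genes called lower and 1.77% called higher. All 26 S-phase members had a negative log2 fold change (median -0.74, or 59.7% of WT), and 15 of them did not overlap between the groups, beside 10.6% of all genes. The mitotic members were split, 12 positive and 9 negative, with a median of 0.07. No mitotic member passed in edgeR or DESeq2, with 2 at an unadjusted edgeR p under 0.05, and 5 of them (Mki67, Ccnb1, Ccnb2, Cdc20 and Cenpe) were higher in KO without overlap, beside 11.7% of all genes. The calls of Mcm3, Mcm5, Mcm6 and Mcm7 were kept under all 12 alternatives. Ccne2 was not called when any 1 of the 6 DSS libraries was left out, nor was Pola1 when any of them other than KO DSS replicate 1 was left out (highest adjusted p 0.138 and 0.127).

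In untreated cells 1 member differed between genotypes: Cdc20, higher in KO, beside 1.72% of all genes called higher and 1.76% called lower. The mitotic members all had a positive log2 fold change (21 of 21, median 0.40, or 131.6% of WT at the median), and 11 of them did not overlap between the groups, beside 9.81% of all genes. The S-phase members were split, 12 positive and 14 negative, with a median of -0.01. None of them passed in edgeR or DESeq2, and none had an unadjusted edgeR p under 0.05. Without untreated WT replicate 3, 11 mitotic members were higher in KO (Bub1b, Nusap1, Aurka, Cdc20, Cdca8, Plk1, Mki67, Ccnb2, Aurkb, Ccnb1 and Kif20a) and the S-phase median was 0.26, beside 2.39% of all genes called higher. Leaving out either of the other untreated WT libraries, or any 1 of the 3 untreated KO libraries, ended the call of Cdc20. The sample list runs in 1 block per genotype and, within it, 1 block per treatment. Its order therefore cannot be told apart from genotype or DSS, and it need not be the order of processing.

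**Figure D3:**
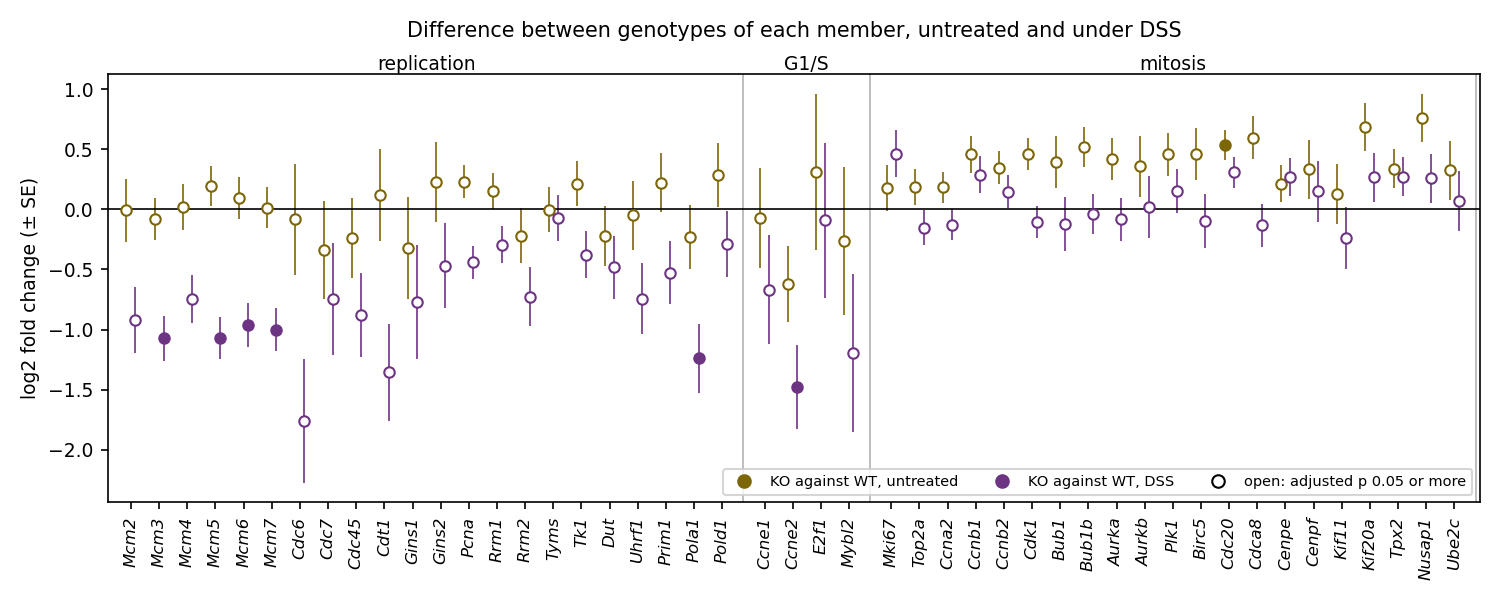
Log2 fold change of each member in KO against WT, with its SE, untreated (olive) and under DSS (purple); filled points have an edgeR adjusted p under 0.05. Untreated, the mitotic members lie between 0.13 and 0.76, above 0, whereas under DSS the S-phase members lie between -1.76 and -0.07 and the mitotic members lie on both sides of 0.

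The 6 subunits of the MCM helicase, which unwinds DNA ahead of the fork, all fell with DSS in KO. Mcm5 (chromosome 8, 75109569 to 75128439, plus strand) had 49.9, 61.9 and 72.9 CPM in untreated WT, 48.6, 59.0 and 50.4 CPM in WT with DSS, 72.0, 76.8 and 62.7 CPM in untreated KO, and 22.8, 22.6 and 29.9 CPM in KO under DSS. Untreated WT overlapped both WT with DSS and untreated KO, and all 3 libraries of KO under DSS lay below the other 9. Its level fell 2.80-fold under DSS in KO (log2 fold change -1.49 with SE 0.18, edgeR adjusted p 0.000234), and its change in WT was -0.22 (SE 0.17, edgeR adjusted p 0.586). Mcm6 (chromosome 1, 128331590 to 128359664, minus strand) had 93.1, 115.6 and 140.6 CPM in untreated WT, 85.5, 86.0 and 86.4 CPM in WT with DSS, 114.1, 129.1 and 129.4 CPM in untreated KO, and 53.5, 47.1 and 32.1 CPM in KO under DSS. Unlike Mcm5, it was lower under DSS without overlap in WT too, though that change did not pass (-0.44, SE 0.18, edgeR adjusted p 0.194; -0.28 without untreated WT replicate 3), and in KO it fell 2.82-fold (-1.49, SE 0.18, edgeR adjusted p 0.00027).

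Mcm2 had 49.3, 40.9 and 89.4 CPM in untreated WT, 44.5, 41.0 and 46.9 CPM in WT with DSS, 54.7, 58.2 and 66.0 CPM in untreated KO, and 32.6, 19.2 and 18.4 CPM in KO under DSS. It fell in KO under DSS (-1.35, SE 0.27, edgeR adjusted p 0.0117). Its difference from WT under DSS did not pass (-0.92, SE 0.27, edgeR adjusted p 0.0942), although all 3 KO libraries lay below all 3 WT libraries. Under DSS in KO, Mcm3, Mcm4 and Mcm7 fell by 1.38, 1.06 and 1.30 on the log2 scale. Against WT under DSS, Mcm3 and Mcm7 were lower by log2 fold changes of -1.07 and -1.001, and Mcm4 (-0.75) did not pass. In untreated cells the 6 subunits differed between genotypes by -0.08 to 0.20, none of which passed. The counts of Mcm7 are less certain than those of the others, since 23.3% of its 50-base words also occur in other genes or pseudogenes.

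Genes that load or fire the helicase had lower counts and wider errors. Cdc7, the kinase that triggers firing, had 14.8, 9.99 and 30.4 CPM in untreated WT, 3.94, 5.32 and 7.32 CPM in WT with DSS, 16.3, 10.8 and 16.6 CPM in untreated KO, and 4.94, 3.40 and 1.66 CPM in KO under DSS. In both genotypes the DSS libraries lay below the untreated ones. Its decrease passed in WT (-1.74, SE 0.43, edgeR adjusted p 0.0259) and also in KO (-2.14, SE 0.45, edgeR adjusted p 0.0157), and the interaction was -0.41 (SE 0.62, edgeR adjusted p 0.922). The call in WT was lost without untreated WT replicate 3 (-1.17, edgeR). The call in KO was kept in only 2 of the 6 fits that left out a KO library (highest edgeR adjusted p 0.0695). Cdt1, the loader of the MCM ring, fell in KO under DSS from 19.5 ± 2.18 to 6.45 ± 2.65 CPM (SD, n = 3), a change lost when any 1 of the 6 KO libraries was left out. Cdc6, its partner, went from 12.8 ± 2.16 to 3.37 ± 1.51 CPM and missed the threshold (-1.92, SE 0.51, edgeR adjusted p 0.0505). Cdc45 (-0.995), Gins1 (-1.52) and Gins2 (-1.08) were negative in KO and did not pass. Gins2 shares 67.3% of its exonic bases with Gse1 on the other strand, so its counts cannot be assigned with certainty where strand was not recorded.

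Of the polymerases and the sliding clamp, Pola1, the catalytic subunit of the primase-polymerase, fell most. It had 19.6, 27.5 and 30.8 CPM in untreated WT, 15.8, 21.7 and 16.3 CPM in WT with DSS, 24.99, 22.3 and 19.3 CPM in untreated KO, and 9.53, 4.29 and 8.99 CPM in KO under DSS. The 3 KO libraries under DSS lay below the other 9. It fell 2.92-fold with DSS in KO (-1.55, SE 0.29, edgeR adjusted p 0.007) and stood at 42.3% of the WT level under DSS (-1.24, SE 0.29, edgeR adjusted p 0.0305). Pcna, the clamp that holds polymerases on DNA, had 84.2, 64.3 and 85.6 CPM in untreated WT, 77.1, 69.5 and 66.2 CPM in WT with DSS, 85.9, 99.8 and 89.2 CPM in untreated KO, and 47.8, 54.8 and 54.2 CPM in KO under DSS. KO under DSS was again below all other libraries, and Pcna fell 1.75-fold with DSS in KO (-0.81, SE 0.14, edgeR adjusted p 0.00419). The difference from WT under DSS did not pass (-0.44, SE 0.14, edgeR adjusted p 0.118). Prim1, the primase, fell in KO under DSS (-1.17), and Pold1, of the lagging-strand polymerase, did not pass (-0.73, SE 0.27, edgeR adjusted p 0.186).

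Nucleotide supply genes differed among themselves. Rrm2, the inducible subunit of ribonucleotide reductase, had 48.3, 50.3 and 71.9 CPM in untreated WT, 23.9, 27.8 and 35.0 CPM in WT with DSS, 51.6, 50.6 and 44.5 CPM in untreated KO, and 11.3, 22.8 and 18.1 CPM in KO under DSS. The DSS libraries of both genotypes lay below all untreated libraries. It fell 1.96-fold in WT (-0.97, SE 0.24, edgeR adjusted p 0.0219; -0.77 and no call without untreated WT replicate 3) and 2.80-fold in KO (-1.48, SE 0.24, edgeR adjusted p 0.00301). Rrm1, its partner, and Tk1, the salvage kinase for thymidine, fell in KO by 0.86 and 1.10 on the log2 scale. Dut, which removes dUTP, did not pass in KO (-0.93, SE 0.26, edgeR adjusted p 0.0648). Tyms, the thymidylate synthase, had the smallest change in KO of the 22 replication members (-0.39, SE 0.19, edgeR adjusted p 0.334) and differed from WT by -0.07 under DSS. Uhrf1, which links replication to maintenance of DNA methylation, fell from 58.9 ± 10.2 to 23.5 ± 9.40 CPM in KO (SD, n = 3; edgeR adjusted p 0.0208).

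The 4 G1/S regulators were low. Ccne2, a cyclin of S-phase entry, had 14.8, 11.8 and 25.9 CPM in untreated WT, 9.09, 11.04 and 7.16 CPM in WT with DSS, 9.54, 14.0 and 10.55 CPM in untreated KO, and 3.704, 2.37 and 3.73 CPM in KO under DSS. The libraries of KO under DSS lay below all others. It fell 3.47-fold with DSS in KO (-1.80, SE 0.35, edgeR adjusted p 0.00931) and was 2.79-fold lower than in WT under DSS (-1.48, SE 0.35, edgeR adjusted p 0.0351), with 17.4% of its exonic bases shared with Ints8. Ccne1, the related cyclin, had a change of -1.56 in KO that did not pass (SE 0.44, edgeR adjusted p 0.0711). E2f1, an activator of replication genes, lay between 0.328 and 3.85 CPM over the 12 libraries and passed in no comparison. Mybl2, a factor that acts with E2F proteins and in mitotic gene induction, had 6.17, 0.74 and 1.24 CPM in KO under DSS and did not pass (-1.08, SE 0.65, edgeR adjusted p 0.47).

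Among the mitotic members, Cdk1, the kinase that drives entry into mitosis, changed most clearly. It had 54.4, 52.7 and 57.1 CPM in untreated WT, 48.5, 41.9 and 42.8 CPM in WT with DSS, 66.5, 84.5 and 75.3 CPM in untreated KO, and 42.0, 43.2 and 38.7 CPM in KO under DSS. Untreated KO was above all other libraries, and the DSS groups overlapped. With DSS in KO it fell 1.83-fold (-0.87, SE 0.13, edgeR adjusted p 0.002). Neither the difference between untreated genotypes (0.46, SE 0.13, edgeR adjusted p 0.0757) nor that under DSS (-0.10, SE 0.14, edgeR adjusted p 0.802) passed.

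Top2a, the topoisomerase that untangles chromosomes, had 183.2, 155.6 and 242.1 CPM in untreated WT, 148.1, 125.2 and 142.4 CPM in WT with DSS, 237.7, 229.4 and 193.6 CPM in untreated KO, and 127.9, 131.3 and 114.9 CPM in KO under DSS. In both genotypes the DSS libraries lay below the untreated ones, and the decrease passed for KO (-0.82, SE 0.15, edgeR adjusted p 0.00572) but not for WT (-0.48, SE 0.15, edgeR adjusted p 0.0738; -0.29 without untreated WT replicate 3). The interaction of these changes was -0.34 (SE 0.21, edgeR adjusted p 0.647). Mki67, the marker of cycling cells that coats mitotic chromosomes, had 83.8, 100 and 165.2 CPM in untreated WT, 74.0, 72.8 and 81.5 CPM in WT with DSS, 139.5, 117.9 and 138.1 CPM in untreated KO, and 115.9, 98.0 and 100.9 CPM in KO under DSS. With all 12 libraries it passed in no comparison in edgeR, whereas DESeq2 called its decrease with DSS in WT, and without untreated WT replicate 3 the untreated KO group was higher than WT (0.52, edgeR adjusted p 0.0357). Under DSS it was higher in KO without overlap (0.46, SE 0.20, edgeR adjusted p 0.278), which is opposite to the S-phase members.

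Cdc20, the activator of the anaphase-promoting complex, had 105.5, 96.6 and 135.7 CPM in untreated WT, 102.6, 103.7 and 94.9 CPM in WT with DSS, 174.8, 156.1 and 158.4 CPM in untreated KO, and 122.2, 116.9 and 133.8 CPM in KO under DSS. Each KO group lay above its WT counterpart. The untreated difference passed (0.53, SE 0.13, edgeR adjusted p 0.0313), and that under DSS did not (0.31, SE 0.13, edgeR adjusted p 0.263). Of the cyclins, Ccna2 fell with DSS in KO (-0.62, SE 0.13, edgeR adjusted p 0.0144), and Ccnb1 (-0.57, SE 0.16, edgeR adjusted p 0.0579) and Ccnb2 (-0.25, SE 0.13, edgeR adjusted p 0.402) did not pass. Of the mitotic kinases and the passenger complex, Aurka (-0.80) and Cdca8 (-0.84) fell, and Aurkb (-0.83), Birc5 (-0.76), Plk1 (-0.53) and Tpx2 (-0.49) did not pass. Bub1b, of the spindle checkpoint, fell (-0.72), and Bub1 (-0.75) and Ube2c (-0.58), the ubiquitin carrier of the anaphase-promoting complex, did not pass. Among motors and kinetochore genes, the spindle motor Kif11 fell (-0.98), as did the microtubule binder Nusap1 (-0.80), and Kif20a (-0.74), Cenpf (-0.79) and Cenpe (-0.31) did not pass. The calls of Bub1b and Nusap1 were lost when any 1 of the 6 KO libraries was left out, and those of Aurka and Kif11 were kept in 1 of these 6 fits. With the replicate number as a block, 23 members were called and those of Nusap1 and Kif11 were lost.

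**Figure D4:**
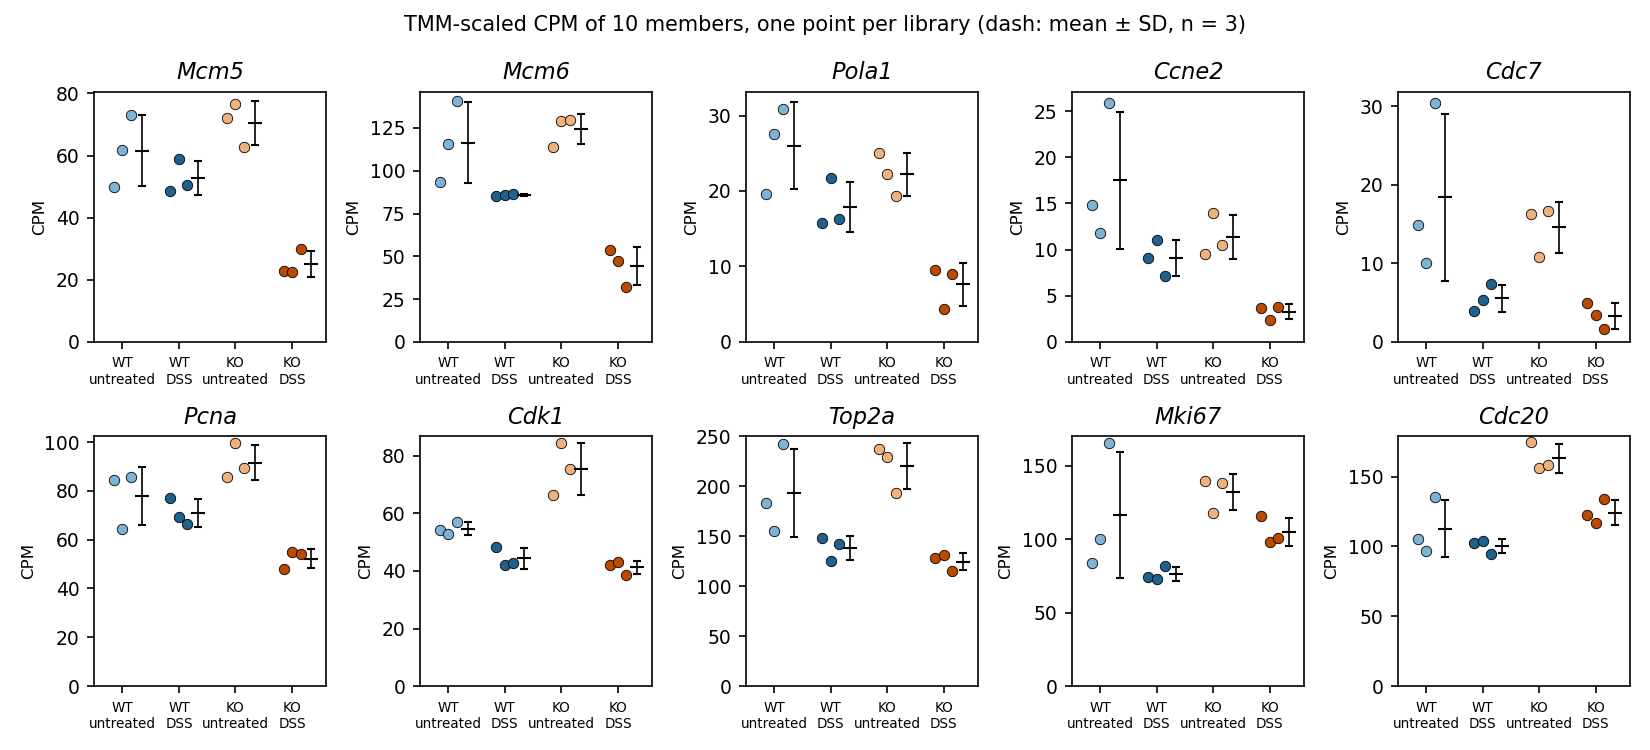
CPM of 10 members in each of the 12 libraries, with the group mean and SD (n = 3). The libraries of KO under DSS are the lowest for Mcm5, Mcm6, Pola1, Ccne2 and Pcna, but not for Mki67 and Cdc20, where they lie above WT under DSS.

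Across the 47 members, the group with the highest mean was untreated KO for 32, untreated WT for 14 and WT under DSS for 1, E2f1. The group with the lowest mean was KO under DSS for 34, WT under DSS for 12 and untreated WT for 1. The lowest group differed by class: it was KO under DSS for 25 of 26 S-phase members, whereas for the mitotic members it was WT under DSS for 12 and KO under DSS for 9. Untreated KO was the highest group for all 21 mitotic members. Per length (RPKM over the union of exons, mean of 12 libraries), the most abundant members were Cdc20 (67.0), Ccnb2 (54.5), Ccna2 (37.2) and Plk1 (35.0), and the least abundant were E2f1 (0.797), Mybl2 (1.14), Gins2 (1.88) and Cenpf (1.92). Pcna (30.5) and Mcm6 (19.9) had the highest RPKM of the S-phase members. Besides Gins2, Mcm7 and Ccne2, counts are less certain for Ccnb1, Mybl2, Pcna and Uhrf1, which share 23.4%, 19.3%, 19.1% and 15.4% of their 50-base words with other genes or pseudogenes, and for Kif20a and Ube2c, which share 29.3% and 22.8% of their exonic bases with Cdc23 and Tnnc2.

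**Figure D5:**
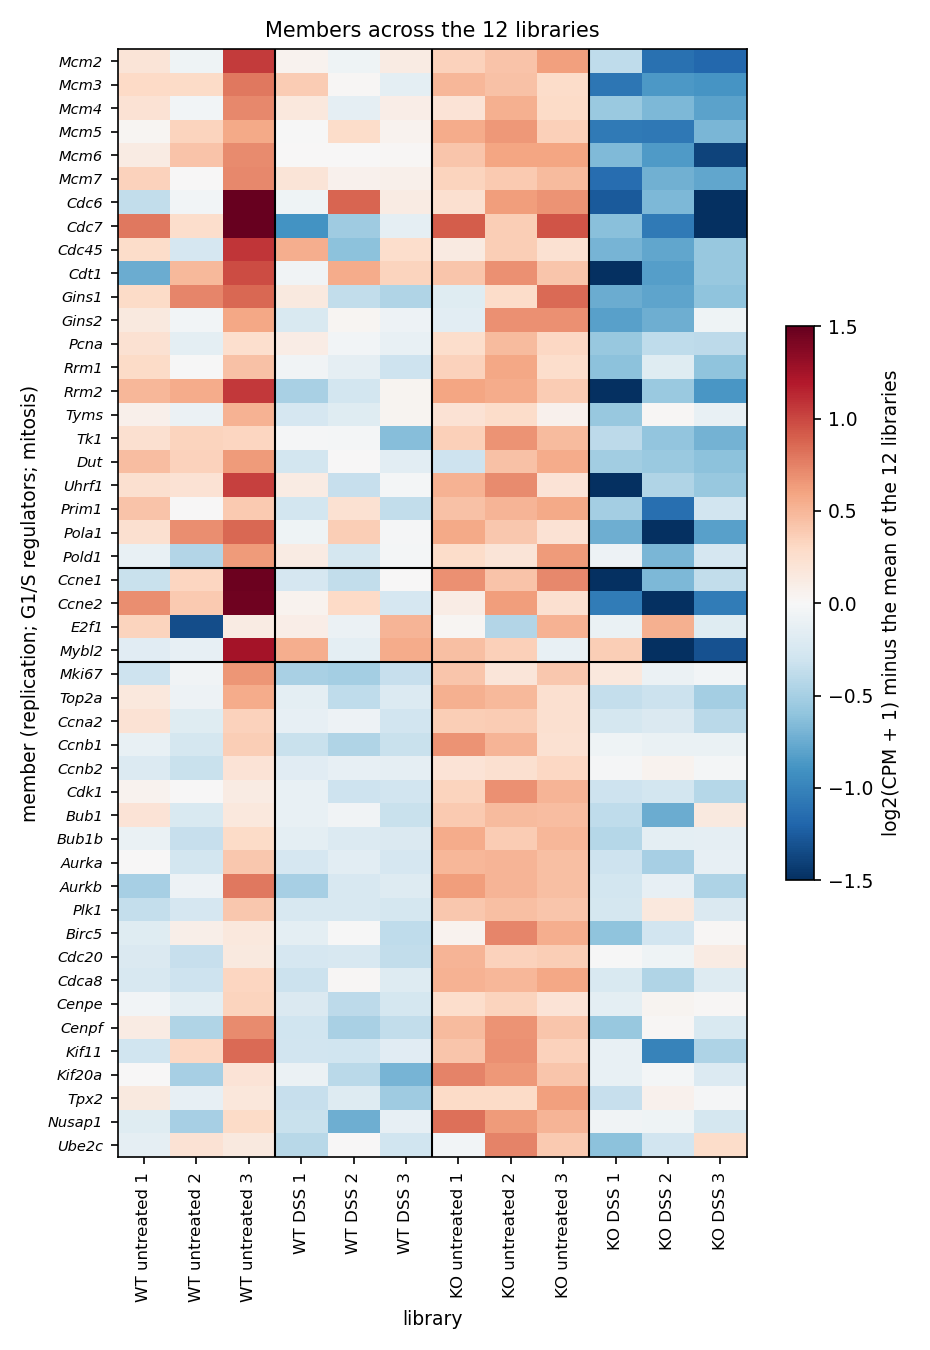
Log2(CPM + 1) of each member minus its mean over the 12 libraries, with members in rows (replication, G1/S regulators, mitosis) and libraries in columns. Except for E2f1, the S-phase rows have their lowest group mean in KO under DSS, the mitotic rows are highest in untreated KO, and untreated WT replicate 3 is higher than its group in both classes.

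Further genes of the same processes were listed to set beside the members. Of 35 other replication genes, 9 fell with DSS in KO, among them Chaf1b (-1.43), a chromatin assembly subunit, Dnmt1 (-1.04), the maintenance methyltransferase, and Rpa2 (-0.94), which binds single-stranded DNA. Their median was -0.60, smaller than the -1.31 of the S-phase members. In WT, Rpa2 fell (-0.78; -0.73 and no call without untreated WT replicate 3), and under DSS Chaf1b was lower in KO than in WT (-0.96, edgeR adjusted p 0.0266). Of 40 other mitosis genes, 10 fell with DSS in KO (median -0.66), with Pbk (-1.09), the condensin genes Smc2 (-0.99) and Ncapd2 (-1.07) and the motor Kif15 (-1.54) at the smallest p. Dlgap5 (-1.08) and Pbk (-0.80) fell in WT, both without a call when untreated WT replicate 3 was left out (-0.87 and -0.57). The phosphatase gene Cdc25b was higher in untreated KO than in untreated WT (0.63), and 36 of the 40 had a positive difference there (median 0.31). Between genotypes under DSS their median was -0.04, against -0.22 for the other replication genes (9 positive, 26 negative). The larger decrease of S-phase than mitotic members with DSS in KO was thus not seen between these 2 lists (-0.60 and -0.66). Nor was it seen in the interaction, where their medians were -0.34 (other replication) and -0.37 (other mitosis).

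Among 25 tested regulators of the cell cycle, Ccnd1, cyclin D1 of G1 progression, changed differently in the genotypes (23.4% of its exonic bases are shared with LTO1). It had 104.5, 121.2 and 104.9 CPM in untreated WT, 166.1, 158.2 and 152.5 CPM in WT with DSS, 76.5, 83.5 and 72.0 CPM in untreated KO, and 55.2, 63.6 and 68.7 CPM in KO under DSS. The 4 groups did not overlap. It rose with DSS in WT (0.53, edgeR adjusted p 0.0128), was lower in KO than in WT both untreated (-0.51, edgeR adjusted p 0.0272) and under DSS (-1.34, edgeR adjusted p 1.49e-05), and its interaction passed (-0.83, SE 0.17, edgeR adjusted p 0.0156). Cdkn1a, the p21 inhibitor, fell with DSS in WT (-0.46) and in KO (-0.70). In KO under DSS, E2f8 (-1.39), E2f3 (-1.26), Cdk4 (-0.85) and, outside the naming rule, Cdk2 (-0.65) also fell. E2f2, an activating E2F, was lower in KO than in WT untreated (-0.65) and under DSS (-0.95). Rbl2, a pocket protein of quiescence, rose with DSS in WT (0.50) and was higher in untreated KO (0.67), and Cdkn2b fell in WT (-0.57). Without untreated WT replicate 3 the rise of Rbl2 in WT did not pass (0.45), and the calls of Ccnd1, Cdkn1a, E2f2 and Cdkn2b, that of Rbl2 between untreated genotypes and that of Cdc25b were kept.

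Markers of the cells that could carry these changes moved too. The 11 crypt markers summed to 599 to 813 CPM in untreated WT, 330 to 365 CPM in WT with DSS, 522 to 599 CPM in untreated KO and 363 to 400 CPM in KO under DSS. With DSS in KO, the stem cell markers Lgr5, Ascl2 and Smoc2 fell, as did Prom1 and, outside the naming rule, Cd44. The other 6 did not pass, and 2 of the 11 had a positive change. The median over the 11 was -0.56, against -0.91 with DSS in WT. Lgr5 had 21.6, 19.0 and 13.2 CPM in untreated KO and 0.706, 0 and 0.968 CPM in KO under DSS. No crypt marker, Lgr5 included, was called lower in KO than in WT under DSS. Their log2 fold changes there ranged from -1.18 to 0.83 (5 negative, 6 positive). In the interaction none was called with a larger decrease in KO, but the differences ranged from -3.10 to 0.82 (4 negative, 7 positive). The absence of a call does not show that a marker was equal in the genotypes. With DSS in WT, 10 of the 11 changes were negative. In WT, Axin2 and Prom1 fell, of which only Prom1 passed without untreated WT replicate 3 (edgeR adjusted p 2.21e-05, against 0.077 for Axin2). Sox9, a crypt factor, under DSS stood higher in KO than in WT (0.83, edgeR adjusted p 0.0139), opposite to the S-phase members. All 8 colonocyte markers fell with DSS in both genotypes, in WT also without untreated WT replicate 3, from 18250 to 20480 CPM down to 6720 to 6839 CPM in WT and from 11510 to 12360 CPM down to 6446 to 7073 CPM in KO. Under DSS, 4 of the 8 were higher in KO than in WT, Aqp8 (1.34), Guca2a (0.99), Car4 (0.82) and Slc9a3 (0.64), and none was called lower, while the sums of the DSS groups overlapped. The 7 goblet markers summed to 18800 to 29890 CPM in untreated WT and 15120 to 17460 CPM in WT under DSS, and to 13730 to 15110 CPM in untreated KO and 26670 to 30610 CPM in KO under DSS. Their sum thus moved up with DSS in KO, the comparison in which the S-phase members fell. With DSS in WT their sum moved down, but the median log2 fold change was 0.01, with 4 positive and 3 negative changes. With DSS in KO, Clca1 (1.29), Fcgbp (0.94) and Muc2 (0.70), all secreted by goblet cells, rose, 4 markers did not pass, and the median was 0.66. Between the DSS groups the same 3 were higher in KO (1.06, 0.87 and 0.42). In WT, Clca1 fell with DSS (-1.05), a call not given here without untreated WT replicate 3.

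Markers of other cell types were low. Pan-leukocyte markers (Ptprc, Cd52, Coro1a and Laptm5) summed to 10.49 to 24.0 CPM in untreated WT, 30.6 to 33.5 CPM in WT with DSS, 53.6 to 72.0 CPM in untreated KO and 78.7 to 106.0 CPM in KO under DSS, with at most 1 of 4 at 0 in a library. T cell markers reached 16.2 CPM, 19.8 CPM, 32.2 CPM and 54.2 CPM in the same order of groups, and myeloid markers 7.40 CPM, 25.4 CPM, 14.7 CPM and 58.8 CPM. B cell markers lay between 1.66 and 15.8 CPM, with 1 of 6 tested, and stromal markers between 0.154 and 6.70 CPM, with 3 to 7 of 8 at 0 in every library. The immediate-early and heat-shock genes that cell dissociation can induce summed to 3151 to 3951 CPM and 3591 to 3803 CPM in untreated WT and KO, and to 5526 to 5718 CPM and 5104 to 5198 CPM under DSS, where 7 and 6 of the 9 tested rose. The part of these cells and genes in the members' changes was not tested.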

How the data were processed

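RNA sequencing counts of 12 libraries were analysed. The authors deposited raw gene counts as whole numbers, not normalized, and per the submitters' processing notes STAR 2.5.2b, featureCounts 1.5.0 and GRCm38 (mm10) were used. Per the labels' protocols, polyadenylated RNA was copied by a SMART-seq2 method without molecular identifiers, so counts are not independent molecules. Strand setting and annotation are not given in the sources used here. Gene IDs were matched without version to GENCODE M21 (46005 of 46517), which gave symbols, coordinates and exon lengths.

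Genes were filtered with filterByExpr (12522 kept, 99.8% of counts), scaled by TMM and tested with edgeR 4.0.16 in R 4.3.3 (quasi-likelihood F test, two-sided, 1 coefficient per group over 12 libraries, Benjamini-Hochberg adjustment over all genes tested, threshold 0.05). SE is the log2 fold change divided by the root of F. Mean log2 CPM used a prior count of 2. The script was tested on simulated counts. No pair of replicates agreed within sampling noise.

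The members, the other lists, the tests and the alternatives (another scaling, other filters, DESeq2 1.42.0, 2-group fits, the replicate number as a block, each library left out) were chosen with earlier results of these data known. Named were members past the threshold, Pcna, Mcm2, Mki67, Top2a and Cdk1 in every group, and up to 4 genes per other list and comparison with the smallest p. Promoters shown were those of members past the threshold in most comparisons, at most 2 per class, with ties broken by the smallest adjusted p after values were seen. Some genes that the rule names are not reported here.

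Titles number the libraries 1 to 3 in each group. Deviations from group means of same-numbered libraries correlated over genes at r = 0.204, 0.106 and 0.127 between the KO groups, all above 0.1, so the number was taken to pair the KO libraries, as a hint from the data. In the other comparisons at least 1 pair was under 0.1. Differently numbered libraries reached at most r = 0.0113 between the KO groups, but 0.282 between untreated KO and untreated WT. The pairing is therefore uncertain.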

Additional observations from a re-analysis of the deposited data

Results flagged for a closer look

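The DSS changes of 10 named genes differed between genotypes by a test of the difference itself (edgeR interaction, KO minus WT). For Mcm5 the difference was -1.26 (log2, edgeR adjusted p 0.0123) and for Mcm6 -1.06 (edgeR adjusted p 0.0483), both with the larger decrease in KO. For Ccnd1 it was -0.83 (edgeR adjusted p 0.0156), with a rise in WT (0.53) and a change of -0.30 in KO. For the crypt marker Prom1 it was 0.82 (edgeR adjusted p 0.0355), with the larger decrease in WT (-1.38 against -0.56 in KO). For the colonocyte markers Car1, Slc9a3 and Ceacam1 it was 1.69, 1.13 and 0.61 (edgeR adjusted p 0.000199, 0.00675 and 0.0114), each with the larger decrease in WT. For the goblet markers Clca1 and Muc2 it was 2.34 and 0.84 (edgeR adjusted p 5.55e-05 and 0.00456); both rose in KO, and in WT Clca1 fell and Muc2 had a change of -0.14 that did not pass. For Hspa1a, a heat-shock gene that cell dissociation can induce, it was 1.91 (edgeR adjusted p 0.00173), with a rise in KO (2.23) and a change of 0.31 in WT that did not pass. These differences do not give the level in KO relative to WT. Hspa1a was lower in KO than in WT both untreated (-3.34) and under DSS (-1.42). Clca1 was lower in untreated KO (-1.28) and higher in KO under DSS (1.06). In untreated cells 2 of the 8 colonocyte markers were called lower in KO and 1 higher, as were 2 of the 7 goblet markers lower. The interactions of all 10 genes passed also without untreated WT replicate 3.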

How the results depend on the processing

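Depth limited members with CPM in single digits in many libraries, such as Gins1, E2f1, Mybl2 and Gins2. No called result changed direction under the alternatives run; 2 medians near 0 changed sign under some of them, going furthest for the S-phase members between untreated genotypes (-0.01) to 0.26 without untreated WT replicate 3, and for the mitotic members between genotypes under DSS (0.07) to -0.0178 without WT DSS replicate 1. For the fits beyond those reported, members called are given with the count over all genes in brackets. For DSS in WT, 2 (789) became 6 (1017) with no filter, 4 (1057) with DESeq2 and 1 (467) with 2 groups. For KO against WT untreated, 1 (436) became 3 (703) with no filter and 2 (406) with at least 10 counts in every sample. It became 5 (790) with DESeq2 and 0 (195) with 2 groups. For KO against WT under DSS, 6 (390) became 12 (642) with no filter, 10 (662) with DESeq2 and 10 (540) with 2 groups. For the interaction, 2 (213) became 6 (356) with no filter and 4 (368) with DESeq2. Leaving out 1 library gave 0 to 5 for DSS in WT, 14 to 18 for DSS in KO (24), 0 to 11 for KO against WT untreated, 4 to 6 under DSS and 1 to 8 for the interaction. The medians then ranged from -0.75 to -0.64 (mitotic, DSS in KO), from -0.18 to 0.26 (S-phase, KO against WT untreated), from -0.0178 to 0.157 (mitotic, KO against WT under DSS), from -1.01 to -0.58 (S-phase, interaction) and from -0.58 to -0.18 (mitotic, interaction).

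With the replicate number as a block, 2 members were called for DSS in WT, 23 for DSS in KO, 1 for KO against WT untreated and 5 under DSS, and 1 for the interaction (Mcm5; Mcm6 was lost).

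Over all genes, some counts moved by more than 1.5 times. With no filter these were 776 (DSS in KO, 491), 703 (KO against WT untreated, 436), 642 (under DSS, 390) and 356 (interaction, 213). With DESeq2 they were 800, 790, 662 and 368. With 2 groups they were 467 for DSS in WT (789) and 195 for KO against WT untreated. Leaving out 1 library gave 483 to 958 (DSS in WT), 235 to 302 (DSS in KO) and 212 to 725 (KO against WT untreated). It gave 160 to 231 under DSS and 152 to 350 for the interaction, with the highest of 725 and 350 without untreated WT replicate 3. Not every count within these ranges moved by more than 1.5 times.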
